A study of Mus musculus with 6 samples.

Results

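The interleukin 1 family was followed through 10 genes in RNA sequencing libraries of mouse cardiac cells, chosen by gene symbol for their place in the system: the agonists Il1a, Il1b, Il18 and Il33, the antagonist Il1rn, the neutralising binding protein gene Il18bp, the decoy receptor gene Il1r2, the signalling receptor genes Il1r1 and Il1rl1, and the co-receptor gene Il1rap. All 10 were among the 17714 genes of the deposited table, and all 10 passed the filter on low counts that left 13370 genes for testing. The study compared 3 libraries taken after myocardial infarction (MI) with 3 libraries taken after a sham operation. Both groups were wild type and labelled day 3, with heart as the tissue and lymphatic endothelial cells as the labelled cell type. The labels' protocols speak of heart tissue or primary endothelial cells and of culture medium with serum, and name no sort. They do not say that the libraries came from separate animals, so p-values here reflect library-to-library spread alone, which may be technical.

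Interleukin 1 alpha and beta bind the receptor encoded by Il1r1, which recruits the co-receptor encoded by Il1rap and signals through the adaptor Myd88 and the Irak kinases to NF-kB. The protein from Il1rn occupies that receptor without signalling, and the protein from Il1r2 captures the agonists but lacks the cytoplasmic part needed to signal. Interleukin 18 is neutralised by the product of Il18bp, and interleukin 33, which is stored in the nuclei of endothelial and stromal cells, is sensed by ST2, the product of Il1rl1, again with the co-receptor from Il1rap. Interleukin 1 beta and interleukin 18 are made as inactive precursors that caspase-1 cleaves, so a transcript level is not a level of active cytokine.

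The MI libraries held 21154200 to 21689212 estimated counts and the sham libraries 3206373 to 3591135, so depth followed the group, and effects of depth and of the operation cannot be told apart by design. The labelled cell type was not matched by its defining markers alone. Prox1, the regulator of lymphatic identity, stood at 0.18 to 0.41 TPM (the authors' length-adjusted transcript abundance, scaled to a fixed sum in each library) in MI and 1.65 to 1.90 TPM in sham, and Lyve1, a surface receptor gene of lymphatic endothelium and of resident macrophages, at 7.26 to 9.23 TPM in MI and 155.9 to 162.0 TPM in sham. The endothelial gene Pecam1 measured 196.2 to 212.7 TPM in MI and 931.0 to 947.5 TPM in sham, while the macrophage gene Cd68 stood at 1897 to 2137 TPM in MI and 150.7 to 162.2 TPM in sham. Between the groups, 73.3% of the tested genes passed an adjusted p of 0.05, with 36.4% higher and 36.9% lower in MI, by edgeR's quasi-likelihood test (p adjusted by Benjamini-Hochberg over all genes tested). Higher calls made up 49.6% of calls, and 34.9% when libraries were scaled to total counts, which moved the median log2 fold change of all genes to -0.36, against -0.01 in the main scaling.

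Of the 10 members, 7 were higher in MI, 1 was lower and 2 did not pass, so that 8 of 10 were called where 73.3% of all tested genes were called. The members' median log2 fold change was 2.01, against -0.01 over all genes tested. The groups of libraries did not overlap in 8 members, a property shared by 76.1% of all tested genes. The 2 steepest rises were in genes that restrain interleukin 1, the antagonist Il1rn and the decoy receptor gene Il1r2. Of the agonists 3 rose as well, Il1r1 and Il33 did not pass the test, and Il1rl1 was the member that fell. Those 8 calls and their directions were the same under each of the 16 alternatives tried, among them scaling to total counts and thinning the MI libraries to the sham depth.

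**Figure D1:**
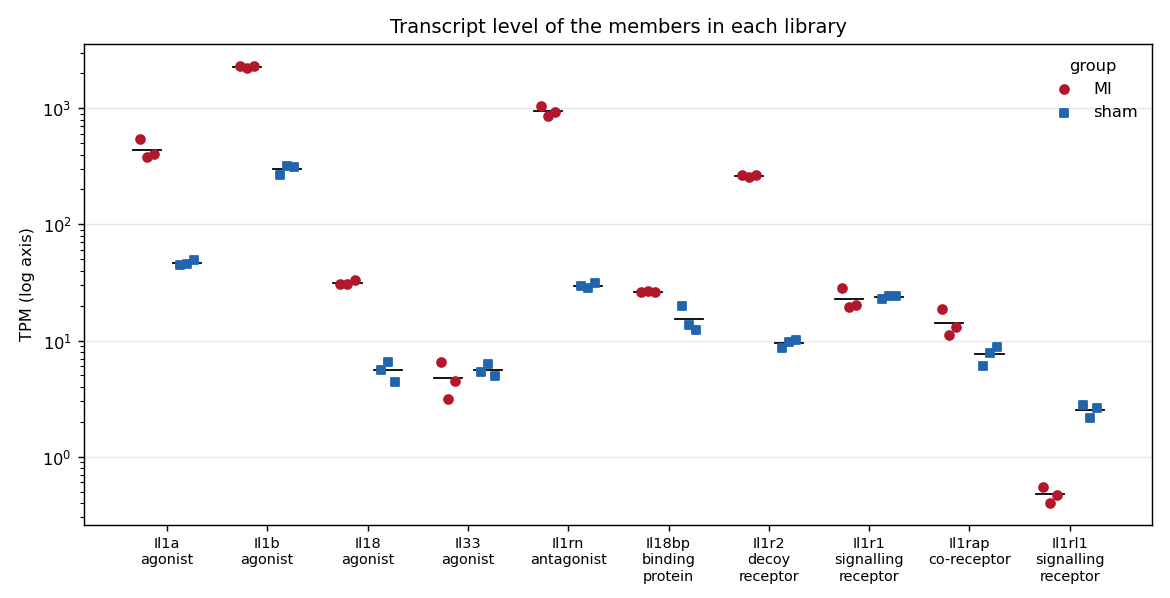
Level of each member in TPM (log axis) by library, with MI circles left of sham squares and a bar at each group mean. Il1b was the most abundant member in both groups, and Il1rn and Il1r2 show the widest gaps between groups, while Il1r1 and Il33 overlap.

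Fold changes come from edgeR's fit to counts scaled to the adjusted library size and can differ from ratios of the TPM values beside them. Levels are given in TPM, which adjust for gene length and can be compared between genes. Summed over the 10 members, they came to 3817 to 4284 TPM in MI and 413.4 to 463.1 TPM in sham. Il1b supplied 54.3 to 58.3% of that sum in MI and 64.9 to 68.8% in sham. In MI the order of levels was Il1b, Il1rn, Il1a, Il1r2, Il18, Il18bp, Il1r1, Il1rap, Il33 and Il1rl1. Neighbours in that order did not overlap between libraries, except Il18bp and Il1r1. In sham the order was Il1b, Il1a, Il1rn, Il1r1, Il18bp, Il1r2, Il1rap, Il33, Il18 and Il1rl1, where Il1r2 overlapped Il1rap, Il1rap overlapped Il33, and Il33 overlapped Il18.

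Il1b, the secreted agonist that myeloid cells make on activation, measured 2325, 2224 and 2316 TPM in the MI libraries, against 268.1, 318.5 and 310.7 TPM in the sham libraries. Every MI library lay far above every sham library. Il1b rose 8.59-fold, a log2 fold change of 3.10 ± 0.09 (SE; 95% interval 2.91 to 3.30; adjusted p = 6.16e-11, edgeR).

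Il1a, the agonist that also acts as an alarm signal when released from damaged cells, measured 539.5, 379.1 and 405.1 TPM in MI, against 44.6, 45.5 and 49.4 TPM in sham. The groups did not overlap, and MI replicate 1 was the highest. Its log2 fold change of 3.40 ± 0.11 (SE) was a 10.5-fold rise (adjusted p = 1.6e-10, edgeR). Il1a and Il1b lie next to each other on the minus strand of chromosome 2, within 71.6 kilobases.

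Il18 stood at 30.6, 30.6 and 33.2 TPM in MI, against 5.62, 6.57 and 4.4 TPM in sham. Its sham values rest on 9.6 to 15.5 counts per library, against 424.0 to 487.4 in MI. The rise was 7.12-fold (log2 fold change 2.83 ± 0.18, SE; adjusted p = 2.95e-08, edgeR). No strand setting was given, so reads from genes that overlap on opposite strands could belong to either. Overlaps given here and below are of whole gene spans, introns included, and overlap of exons was not measured. Il18 shares 4507 bases with Tex12 and 355 with Bco2, both in the table. Il1a shares 8217 bases with Gm14023, Il1b 1243 with Il1bos, Il1r2 9624 with Gm16894 and Il1rap 15672 with Gm20319, none of which had a row of its own in the table analysed. On the same strand, Il1r2 shares 3071 bases with Gm37347 and Il1r1 6480 with Gm38070, neither with a row of its own.

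Il33 was measured at 6.50, 3.16 and 4.48 TPM in MI, against 5.40, 6.25 and 4.99 TPM in sham. The MI libraries spread above and below the sham libraries. In CPM (counts scaled to the adjusted library size) it differed by -0.10 ± 0.25 (log2 fold change and SE; 95% interval -0.66 to 0.45; adjusted p = 0.726, edgeR). A change of up to 1.37-fold upward or to 0.634 of the sham level is inside that interval. The sham libraries held 23.9 to 31.9 counts of the gene and the MI libraries 93.0 to 169.0.

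Il1rn, the gene of the receptor antagonist, measured 1043, 864.3 and 925.4 TPM in MI, against 29.6, 28.4 and 31.2 TPM in sham. The lowest MI library was far above the highest sham library. Il1rn rose 35.5-fold (95% interval 31.0 to 40.7), a log2 fold change of 5.15 ± 0.09 (SE; adjusted p = 4.48e-12, edgeR). By p it ranked 5 of all 13370 genes tested, and 145 genes had a larger log2 fold change.

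Il1r2, the gene of the decoy receptor of neutrophils and monocytes, measured 266.1, 258.2 and 267.0 TPM in MI, against 8.64, 9.75 and 10.1 TPM in sham. Both groups were tight and well apart, although the sham values rest on 25.0 to 26.8 counts per library. The rise was 31.6-fold (95% interval 26.3 to 37.9; log2 fold change 4.98 ± 0.12, SE; adjusted p = 2.38e-11, edgeR). By log2 fold change, 164 tested genes lay above it.

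Il18bp, whose product neutralises interleukin 18, measured 26.2, 26.5 and 26.2 TPM in MI, against 20.0, 13.7 and 12.3 TPM in sham. The groups did not overlap, and the sham libraries spread more widely than the MI libraries. It rose 1.92-fold (log2 fold change 0.94 ± 0.15, SE; adjusted p = 0.000121, edgeR). The gene shares 80 bases with Numa1 on the opposite strand.

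Il1r1, the signalling receptor gene, measured 28.2, 19.6 and 20.2 TPM in MI, against 22.6, 24.4 and 24.3 TPM in sham. Of the MI libraries, 2 lay below all sham libraries and MI replicate 1 above them. In CPM it differed by 0.07 ± 0.12 (log2 fold change and SE; adjusted p = 0.598, edgeR), and the 95% interval ran from 0.876 to 1.26-fold. Without MI replicate 1 the log2 fold change was -0.04, and with libraries scaled to total counts it was -0.28 with an adjusted p of 0.0607, so no direction is given for Il1r1.

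Il1rap, the co-receptor gene shared by the interleukin 1 and interleukin 33 receptors, measured 18.6, 11.2 and 13.0 TPM in MI, against 6.06, 7.86 and 8.85 TPM in sham. The groups did not overlap, and MI replicate 1 was again the highest. It rose 2.27-fold (log2 fold change 1.18 ± 0.18, SE; adjusted p = 8.49e-05, edgeR).

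Il1rl1, which encodes ST2 in a membrane and a soluble form that a gene-level table does not separate, measured 0.55, 0.40 and 0.47 TPM in MI, against 2.78, 2.14 and 2.60 TPM in sham. All MI libraries were below all sham libraries. The counts per library were 24.6 to 28.3 in MI and 23.5 to 28.8 in sham, similar numbers from libraries of very different depth. Il1rl1 fell 4.71-fold (log2 fold change -2.24 ± 0.23, SE; adjusted p = 3.26e-06, edgeR).

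**Figure D2:**
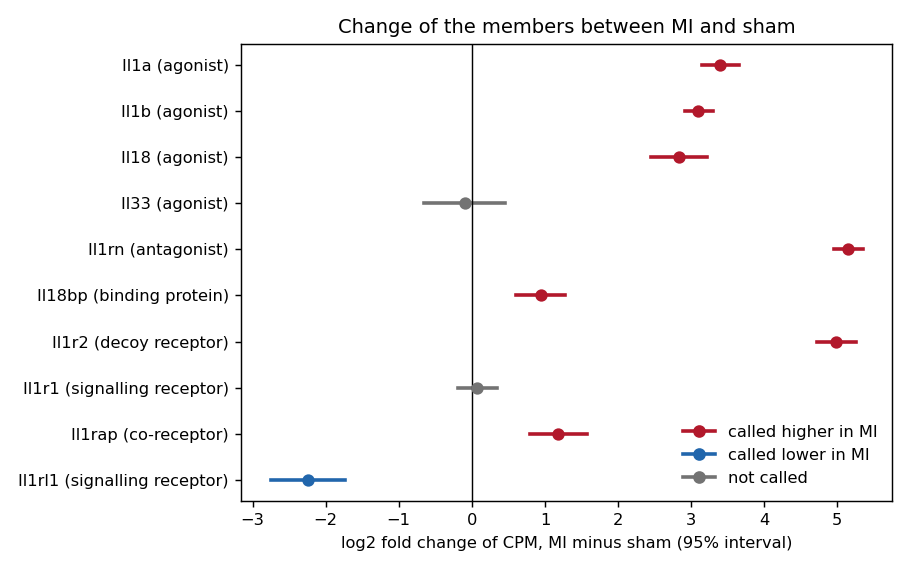
Log2 fold change of each member in CPM, MI minus sham, with its 95% interval from edgeR's quasi-likelihood fit. Il1rn at 5.15 and Il1r2 at 4.98 lie farthest to the right, Il33 and Il1r1 span 0, and Il1rl1 lies at -2.24.

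Ratios between partners were formed in each library from TPM. For each of the 5 ratios the exact two-sided permutation test gave p = 0.1 (0.1 adjusted over the 5), the smallest p that 3 against 3 libraries allow, so the sizes are read against the spread between libraries. There were 0.449, 0.389 and 0.400 Il1rn transcripts per Il1b transcript in the MI libraries, against 0.110, 0.0893 and 0.101 in the sham libraries. This antagonist to agonist ratio was 4.13 times as high in MI, a log2 difference of 2.05 with SDs of 0.11 in MI and 0.15 in sham. Il1b transcripts nevertheless outnumbered Il1rn transcripts in every library.

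The decoy to signalling receptor ratio, Il1r2 to Il1r1, was 9.43, 13.2 and 13.3 in MI, against 0.382, 0.400 and 0.414 in sham. The decoy transcript was thus the rarer of the pair in every sham library and the more abundant in every MI library. The log2 difference was 4.89, with SDs of 0.28 in MI and 0.06 in sham. For Il18bp to Il18 the order turned the other way, with ratios of 0.857, 0.864 and 0.789 in MI, against 3.56, 2.09 and 2.79 in sham, a log2 difference of -1.72.

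Transcripts of the receptor gene Il1rl1 per transcript of its ligand gene Il33 numbered 0.0846, 0.127 and 0.105 in MI, against 0.515, 0.342 and 0.521 in sham. The log2 difference of -2.12 was several times the SDs of 0.29 in MI and 0.34 in sham. Il1a to Il1b was 0.232, 0.170 and 0.175 in MI, against 0.166, 0.143 and 0.159 in sham. That log2 difference of 0.29 was close to the MI SD of 0.25, and without MI replicate 1 it was 0.15 (exact permutation p = 0.2).

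**Figure D3:**
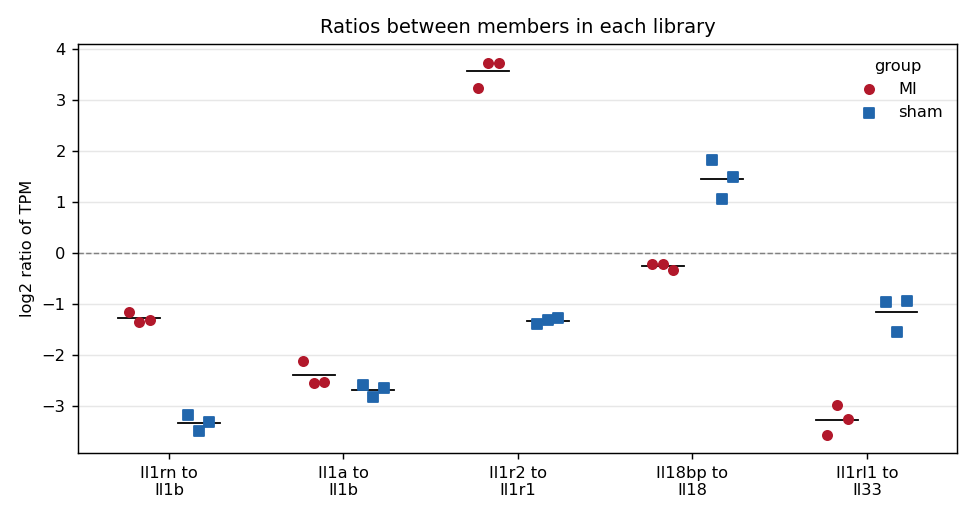
Log2 ratio of TPM between 2 members in each library, MI circles left of sham squares, with a bar at each group mean and a dashed line where both transcripts are equal. Il1r2 to Il1r1 crosses the line upward in MI and Il18bp to Il18 crosses it downward, while Il1a to Il1b differs least.

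Cell type marker lists moved with these groups. All 12 macrophage and monocyte markers were higher in MI (median log2 fold change 2.65), and their summed level was 26900 to 28200 TPM in MI and 6200 to 6560 TPM in sham. Of 10 neutrophil markers tested, 9 were higher and none lower (median 4.20; 3.81 once Ngp, which had no sham count, is placed at its bound of 3 counts over the sham group), and the summed level of the list was 1750 to 2150 TPM in MI and 92.0 to 118.0 TPM in sham. All 12 pan-endothelial markers were lower (median -2.08), summing to 1080 to 1110 TPM in MI and 5830 to 5890 TPM in sham. Of 10 lymphatic markers, 9 were lower and 1, Pdpn, was higher (median -2.23), with sums of 253.0 to 267.0 TPM in MI and 498.0 to 527.0 TPM in sham. Fibroblast markers were split, 4 higher and 6 lower of 10. Their sums were 816.0 to 952.0 TPM in MI and 1240 to 1290 TPM in sham. The defining fibroblast markers Col1a1 and Col1a2 were among the higher, by 6.3-fold and 3.15-fold in CPM. The rises of Il1b, Il1a, Il18, Il1rn, Il1r2, Il18bp and Il1rap came in libraries with more myeloid transcripts, and the fall of Il1rl1 in libraries with fewer endothelial transcripts. The part of cell makeup in these changes was not tested, and fewer cells of a type and less RNA per cell cannot be told apart in bulk RNA.

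Lists for the remaining cell types were read beside Il1rl1 and Il33, since mast cells and type 2 lymphoid cells respond to interleukin 33. Of 10 mast cell and basophil markers listed, 5 were in the table and 2 could be tested, Hdc higher and Kit lower. With Hdc as the only higher call, the list summed to 86.2 to 92.4 TPM in MI and 14.2 to 23.1 TPM in sham. Its defining marker Cpa3 was at 0 to 0.09 TPM in MI and 0 to 0.48 TPM in sham. Of 11 T cell and innate lymphoid markers in the table, 5 were tested, 3 higher and 1 lower, with sums of 111.0 to 119.0 TPM in MI and 20.0 to 27.6 TPM in sham. The T cell receptor gene Cd3e was at 0 in every MI library and at 0 to 0.33 TPM in sham. Cd3d, the other defining marker, was at 0 to 0.17 TPM in MI and 0 to 1.06 TPM in sham. All 8 mural markers fell (sums of 376.0 to 417.0 TPM in MI and 1590 to 1610 TPM in sham), and so did all 8 cardiomyocyte markers (176.0 to 203.0 TPM in MI and 4670 to 4730 TPM in sham). Of 4 epithelial and mesothelial markers tested, 3 fell and 1 rose, with sums of 7.82 to 8.42 TPM in MI and 18.5 to 25.4 TPM in sham.

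The genes of the family differ in where they lie. Il1r2, Il1r1, Il1rl1 and 3 further receptor genes, Il1rl2, Il18r1 and Il18rap, form a run of 467.0 kilobases on chromosome 1 (40084692 to 40551707, GRCm38.p6). Neighbours in that run did not move together. Il1r2 rose 31.6-fold, Il1r1 and the interleukin 36 receptor gene Il1rl2 did not pass (Il1rl2 adjusted p = 0.162, edgeR), Il1rl1 fell 4.71-fold, and Il18rap, the interleukin 18 co-receptor gene at the far end, rose 27.7-fold from very few sham counts. Il1rn lies on chromosome 2 from 24336860 to 24351491, Il1rap on chromosome 16, Il18 on chromosome 9, Il18bp on chromosome 7 and Il33 on chromosome 19. All 10 members are annotated as protein coding.

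The start regions of 5 members are shown because these genes had the highest levels (Il1a, Il1b and Il1rn) or form the decoy and receptor pair that parted (Il1r2 and Il1r1). Each sequence is the 250 bases before a RefSeq transcript start in GRCm38.p6, 5′ to 3′ on the gene's strand. Capitals mark matches, on either strand, to the NF-kB consensus, to the AP-1 motif TGANTCA, to TATAAA and to GAGGAA, the core of the PU.1 motif. Il1rn has 3 such windows and Il1r1 has 2, of which the first and the second are shown. In both genes the window shown was the only one with a match to any of these motifs.
Il1a (chr2:129309973-129310222, minus strand): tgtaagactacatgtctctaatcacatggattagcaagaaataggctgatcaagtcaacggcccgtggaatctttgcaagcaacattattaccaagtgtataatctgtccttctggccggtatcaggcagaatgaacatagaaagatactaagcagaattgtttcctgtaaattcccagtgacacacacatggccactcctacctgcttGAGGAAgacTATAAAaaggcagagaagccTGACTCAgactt
Il1b (chr2:129371140-129371389, minus strand): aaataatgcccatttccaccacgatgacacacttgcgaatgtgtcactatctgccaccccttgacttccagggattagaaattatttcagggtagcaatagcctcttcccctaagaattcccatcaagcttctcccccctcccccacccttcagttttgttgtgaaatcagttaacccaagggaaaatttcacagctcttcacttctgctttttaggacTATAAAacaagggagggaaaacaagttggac
Il1rn (chr2:24336610-24336859, plus strand): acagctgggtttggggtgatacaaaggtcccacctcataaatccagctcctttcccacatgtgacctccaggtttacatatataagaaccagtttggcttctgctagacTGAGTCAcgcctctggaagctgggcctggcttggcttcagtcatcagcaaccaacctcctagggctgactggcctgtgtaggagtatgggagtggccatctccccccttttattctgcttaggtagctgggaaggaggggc
Il1r2 (chr1:40085843-40086092, plus strand): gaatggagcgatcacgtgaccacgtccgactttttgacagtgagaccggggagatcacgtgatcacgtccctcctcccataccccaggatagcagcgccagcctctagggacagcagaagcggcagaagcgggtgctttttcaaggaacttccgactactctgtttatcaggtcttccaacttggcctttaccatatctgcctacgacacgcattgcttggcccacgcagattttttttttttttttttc
Il1r1 (chr1:40266336-40266585, plus strand): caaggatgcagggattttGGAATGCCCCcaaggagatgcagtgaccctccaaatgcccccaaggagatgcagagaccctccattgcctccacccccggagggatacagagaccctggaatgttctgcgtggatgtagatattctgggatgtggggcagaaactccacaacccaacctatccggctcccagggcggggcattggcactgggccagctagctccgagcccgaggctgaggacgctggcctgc

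Il1a and Il1b both carry TATAAA just before the start, beginning 32 and 31 bases upstream. At any position and on either strand, TATAAA was found in 5 of the members' 15 windows and in 12.4% of all 32851 windows of this length. Il1a also holds the AP-1 motif 12 bases and GAGGAA 41 bases before its start, and the shown Il1rn window holds the AP-1 motif 141 bases before it. Those motifs were found in 6.75% and 23.3% of all windows. An NF-kB consensus match lay 232 bases before the second Il1r1 start, against 3.9% of all windows. It was the only such match in the 15 windows of the 10 members. The Il1r2 window held none of the 4 motifs. A match describes letters and is not evidence of binding, and the 250 bases leave out more distant elements.

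Further members of the family were read from a list of 11 genes, written like the 3 lists that follow from textbook knowledge. Of the 10 found in the table, 4 passed the filter, and 2 of those were higher and 1 lower in MI, a share called that is near the 73.3% of all genes tested. Their median log2 fold change was 2.44, against -0.01 over all genes tested. That median rests on 4 genes spread from -2.4 to 4.79 and moved with the genes that entered. With 10 genes entered it was 0.27 by DESeq2 and 1.39 with no filter. With a sham library omitted, 5 genes entered and it was 0.74 to 1.2. Il1f9, the older symbol of the interleukin 36 gamma gene, an agonist of epithelia and myeloid cells, measured 87.9, 65.6 and 74.6 TPM in MI, against 2.13, 3.81 and 4.67 TPM in sham, a 24.2-fold rise (adjusted p = 9.95e-10, edgeR). Il18rap measured 12.2, 8.12 and 9.89 TPM in MI, against 0.22, 0.59 and 0.44 TPM in sham (adjusted p = 1.55e-08, edgeR). Its sham level rests on 1.7 to 4.0 counts per library, against 357.2 to 460.0 in MI, and its log2 fold change of 4.79 ranged from 2.96 to 5.10 over the alternatives, with the lowest on log2(TPM + 1). Il18r1, the interleukin 18 binding chain, was below the filter at 0.35 to 0.49 TPM in MI and 0.15 to 0.30 TPM in sham. Sigirr, which encodes an inhibitory receptor of the family, fell 5.30-fold and measured 11.5, 12.4 and 12.8 TPM in MI, against 72.4, 71.3 and 71.2 TPM in sham. The interleukin 36 alpha gene, listed as Il1f6, was at 0.51 to 1.25 TPM in MI and listed at 0 in every sham library.

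Of 19 signalling genes next to the receptor, 14 rose and none fell, with a median log2 fold change of 0.71. The share called was near the 73.3% of all genes tested, of which 36.4% were higher, and with libraries scaled to total counts 11 rose and 3 fell. Irak2, a kinase of the signalling complex, rose 5.34-fold in CPM. Its level was 125.1 ± 5.69 TPM in MI, against 25.8 ± 1.76 TPM in sham (SD, n = 3 each). The ubiquitin ligase gene Traf6 rose 3.08-fold, Tab2, which links it to the kinase Tak1, 2.53-fold, and the ubiquitin ligase gene Peli1 2.90-fold. Myd88, the shared adaptor, and Irak3, a brake on the complex, were named after their values were seen and rose 1.63-fold and 2.20-fold.

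Of 16 genes of cytokine maturation and release tested, 15 rose and 1 fell, where 73.3% of all genes were called and 36.4% were higher. Among those that rose, 1 had no sham count, so it passed the filter through the MI libraries alone and could only rise. The median log2 fold change was 0.98, and with libraries scaled to total counts 13 rose and the median was 0.63. The smallest rises, at log2 fold changes of 0.20 and 0.29, were called in 6 and 10 of 16 alternatives and each changed sign in 1. Nlrp3, the inflammasome sensor gene, rose 7.15-fold in CPM. Its level was 484.3 ± 31.7 TPM in MI, against 75.6 ± 4.88 TPM in sham (SD, n = 3 each). Its adaptor gene Pycard rose 6.92-fold, the DNA sensor gene Aim2 4.52-fold, and Ninj1, a gene of plasma membrane rupture, 6.63-fold. Casp1, the protease gene that matures interleukin 1 beta and 18, was named after its value was seen and rose 2.06-fold.

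Genes that interleukin 1 induces in endothelial cells were tested as a list of 20, of which 19 passed the filter. Of these, 15 were called higher, Sele among them, and 3 lower, where 73.3% of all genes were called and 36.4% were higher. The median log2 fold change was 1.76, and 13 were called higher with libraries scaled to total counts. Tnfaip3, an inhibitor of NF-kB, rose 14.2-fold, and the chemokine genes Cxcl2, Ccl7 and Cxcl1 rose 12.8-fold, 5.64-fold and 5.59-fold. Those 4 genes are also made by activated macrophages. All 4 adhesion genes of the list are given, named after their values were seen. Icam1 rose 1.83-fold in CPM (adjusted p = 7.08e-07, edgeR), at 394.2 ± 4.34 TPM in MI and 240.5 ± 6.01 TPM in sham (SD, n = 3 each). E-selectin transcripts (Sele) stood at 11.8 ± 2.89 TPM in MI and 10.3 ± 2.62 TPM in sham and were called higher by 1.34-fold in CPM (adjusted p = 0.0324, edgeR). The groups overlapped, and that call held in 7 of 16 alternatives, with an adjusted p of 0.68 when libraries were scaled to total counts, so no direction is given for Sele. Selp fell 1.38-fold (adjusted p = 0.00968, edgeR), and Vcam1 did not pass (adjusted p = 0.264, edgeR). The call of Selp held in 15 of 16 alternatives, with an adjusted p of 0.0559 (edgeR) without sham replicate 1. Plat and Nos2 were the other genes that fell, by 2.40-fold and 3.39-fold. Beside them, the medians were 2.65 for macrophage markers and -2.08 for pan-endothelial markers, and the part of cell makeup in these counts was not tested.

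**Figure D4:**
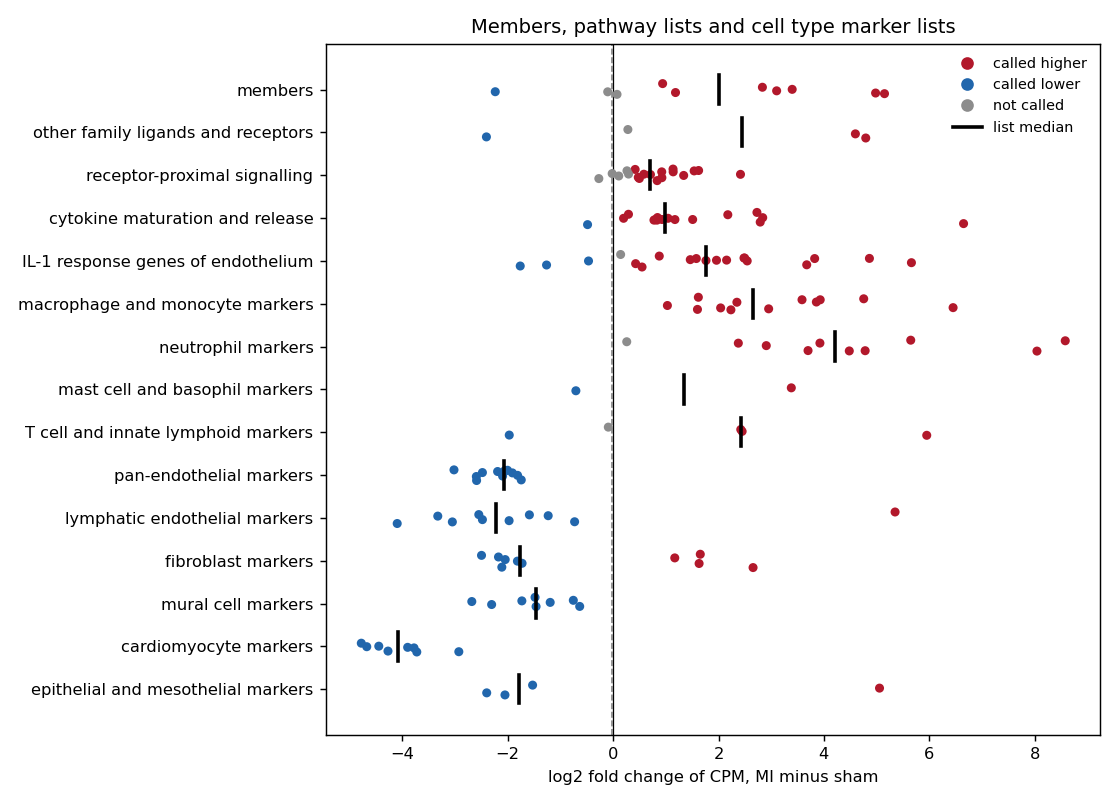
Log2 fold change in CPM, MI minus sham, for each tested gene of the members, the 4 pathway lists and the 10 cell type marker lists, with a bar at each list median and a dashed line at the median of all genes. The members spread from -2.24 to 5.15, the macrophage list sits at 2.65 and the pan-endothelial list at -2.08.

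The genes most like Il1b and Il1r1 in pattern were sought by the distance between mean-centred log2 CPM over the 6 libraries, among 9272 genes with a mean of at least 10 CPM over the 6 libraries. Nearest to Il1b were Trpm2, a calcium channel gene, Lcp2, an adaptor gene of leukocytes, and Pgd, a gene of the pentose phosphate pathway, at distances of 0.06, 0.072 and 0.0776 log2 units. Lcp2, for example, measured 323.0, 306.8 and 320.3 CPM in MI, against 34.4, 37.8 and 40.9 CPM in sham. Nearest to Il1r1 were Lrrc58, Cggbp1 and the centrosome gene Cep135, at 0.0399 to 0.0465 log2 units. Each of the 3 was highest in MI replicate 1, as Il1r1 was, which follows from their choice by distance over the same libraries.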

How the data were processed

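The authors deposited 1 table that holds, per gene and library, estimated counts, FPKM, TPM and a further scaled signal that was not used. Reads were mapped to mouse GRCm38, per the series' design text, and the submitters' processing notes list GRCm38.p6. The aligner, counter, annotation, strand setting and filters are not given in the sources used here. Groups and replicate numbers came from the sample titles. Estimated counts were rounded to whole numbers and analysed in R 4.3.3 with edgeR 4.0.16 (filterByExpr, TMM scaling, quasi-likelihood test, group as the only term). The procedure was also run on simulated counts in which far fewer genes changed than were called here, so that run does not give its error rate in these data. Each SE was derived as |log2 fold change| over √F of the quasi-likelihood test. Replicates differed beyond counting noise, so all 6 were kept. Chi-square per gene was 35.4 and 21.4 for MI replicate 1 against MI replicates 2 and 3, and 4.15 between those 2. It was 1.54 to 1.77 between sham libraries. The coefficient of variation between replicates was 0.121 in MI and 0.043 in sham, while the fit shared 1 estimate of the spread.

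The members, the lists and the tests were chosen with earlier results of these data known. Named genes are the members, the up to 4 genes of smallest p among those called in each pathway list, defining markers (the first 2 of a list) and the 3 genes nearest in pattern to Il1b and to Il1r1, by root-mean-square distance of centred log2(CPM + 0.5). Further names were chosen after their values were seen. A list gene that entered the counts is not reported here by name. The list genes of interleukin 36 were matched through RefSeq synonyms. Alternatives were DESeq2 1.42.0, RLE scaling, scaling to total counts, no filter, a stricter one (a group with 1 CPM or more throughout, and 100 counts in total), a replicate block, omission of single libraries, limma-voom (limma 3.58.1), limma on log2(TPM + 1) and log2(TPM + 0.1) where 3 libraries reached 1 TPM, MI counts thinned to the sham depth, and for ratios FPKM or 0.1 TPM added. Promoter windows and positions came from RefSeq, GRCm38.p6, and all 10 members matched. Overlaps of gene spans, and the strands used for them, came from the GENCODE annotation.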

Additional observations from a re-analysis of the deposited data

How the results depend on the processing

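For the members' log2 fold changes, 155 of 160 values under alternative settings kept the direction and the side of the threshold. The 40 values of ratios kept their sign, but their exact permutation p cannot go below 0.1, so no threshold was at stake. Counts called ran from 3 to 4 for other family genes, 13 to 16 for receptor-proximal signalling, 13 to 16 for maturation and release and 16 to 19 for response genes. The count of members called was 8 in each setting, with 7 higher and 1 lower. The 5 exceptions concern the 2 members that did not pass in any setting. Il1r1 changed sign with libraries scaled to total counts (-0.28), without MI replicate 1 (-0.04), on log2(TPM + 1) (-0.08) and on log2(TPM + 0.1) (-0.09), and it ran from -0.04 to 0.14 with single libraries left out. Il33 changed sign without MI replicate 2 (0.08) and ran from -0.32 to 0.08 with single libraries left out. The cause was not tested. Il1rl1, near the lower end of the TPM scale, had a log2 fold change of -1.25 on log2(TPM + 1), where the added 1 exceeds its MI values. The numbers did not pair the libraries: deviations of same-numbered MI and sham libraries correlated by -0.05, -0.02 and 0.02, and not every library correlated best with its own number. With the replicate block 8 members were called and 9635 of all genes, against 9801 without it. The least precise members were Il33 and Il1rl1, with SEs of 0.25 and 0.23; Il33 had 93.0 to 169.0 counts in MI and 23.9 to 31.9 in sham, and Il1rl1 had 24.6 to 28.3 in MI and 23.5 to 28.8 in sham.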
